A study of Homo sapiens with 8 samples.

Results

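Notch signalling passes between neighbouring cells: a Jagged or Delta ligand on one cell binds a Notch receptor on the next, the receptor is cut, and its freed intracellular part joins the DNA-binding protein RBPJ to switch on targets of the HES and HEY families. HES and HEY proteins are repressors that also lower their own transcription, and NRARP, another target, limits the pathway by acting on the receptor complex. Many immediate targets have promoters at which RNA polymerase II pauses shortly after initiation, a step in which the NELF complex takes part.

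The genes described here were 10 components of this pathway, out of 33854 genes with reads and 60725 genes listed in the count table: the ligands JAG1, JAG2 and DLL1, the receptors NOTCH1, NOTCH2 and NOTCH3, and the targets HES1, HES4, HEY1 and NRARP. They were picked by name, with their levels and fold changes in these same libraries already known. Their differences between groups are therefore given as a description with a standard error and without a p-value. Where a member is said to be called, to pass the threshold or to keep a call, this describes the fits. It is no test of the gene, and nothing is read from it. All 10 passed the filter on low counts.

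The study asked how depletion of NELF changes gene activity in HAP1, a near-haploid human line derived from a chronic myeloid leukaemia. All 8 libraries came from clone SC9, a single clone that expresses dCas9-KRAB (made as a dCas9-BFP-KRAB fusion driven by an EF1-a promoter), so that a guide RNA directs repression to a chosen start site. Cells were transduced with a lentiviral guide, selected with puromycin and harvested 144 h after transduction for sequencing of polyadenylated RNA. The control group, 3 libraries, carried a guide against ADAM22 (pLB187); 3 libraries carried a guide against NELFE and 2 a guide against NELFB, both subunits of the NELF complex. Each knockdown had 1 guide and the control 1 guide, so a guide and its target gene cannot be told apart. Both knockdowns were compared with the same 3 control libraries. Libraries held between 22037423 and 24444185 reads counted on genes, and replicate libraries of 1 group differed by more than counting error in every pair. The counts came from unfractionated cultures, in which fewer expressing cells and less RNA per cell cannot be told apart.

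The guide targets matched the labels. NELFE was at 50.6, 49.5 and 47.8 CPM (counts scaled to a common library size with TMM factors) in control libraries, at 2.41, 2.38 and 2.98 CPM with its own guide and at 61.4 and 56.6 CPM with the NELFB guide. NELFB was at 74.6, 72.8 and 78.7 CPM in control libraries, at 63.5, 64.2 and 64.01 CPM with the NELFE guide and at 3.08 and 2.76 CPM with its own. ADAM22, the target of the control guide, was at 13.7, 12.9 and 11.2 CPM in control libraries and between 29.9 and 47.6 CPM in the knockdown libraries, above every control. The control libraries thus differ from the others in ADAM22 as well as in NELF. Every library carried a guide, so a fall of ADAM22 with its guide and a rise in the knockdowns cannot be told apart. BCR and ABL1, the partners of the fusion gene of the parental leukaemia, together gave 39.2, 45.4 and 40.6 CPM in control libraries, 75.4, 65.7 and 47.6 CPM after NELFE knockdown and 80.2 and 73.9 CPM after NELFB knockdown. ABL1 was above the controls in all 5 knockdown libraries, with a pooled log2 fold change of 1.05 (SE 0.17, edgeR adjusted p = 0.0019), and BCR was at 0.30 (SE 0.13, edgeR adjusted p = 0.117). Markers of other lineages had low levels: the 5 endothelial genes summed to between 0.160 and 0.540 CPM, and the 4 epithelial genes to between 0.0465 and 0.416 CPM, with VWF and EPCAM the most abundant. Of 6 blood markers, 5 had reads and 3 of these never exceeded 3 reads in any library. Their sum was 0.321, 0.178 and 0.131 CPM in control libraries, 0.791, 0.778 and 1.49 CPM after NELFE knockdown and 3.03 and 1.02 CPM after NELFB knockdown. CD34 led the sum over all libraries and GATA1 exceeded it in control replicate 1 and NELFE replicate 2. CD34 rose in the pooled comparison by 3.50 on the log2 scale (SE 0.87, edgeR adjusted p = 0.0142), with the NELFE guide by 2.82 (SE 0.83, edgeR adjusted p = 0.0452) and with the NELFB guide by 4.14 (SE 0.77, edgeR adjusted p = 0.00541). These values rest on 3, 3 and 1 reads in the control libraries, against 16, 6 and 28 after NELFE knockdown and 67 and 21 after NELFB knockdown. CD34 thus passed the filter on low counts through the knockdown libraries alone, and nothing is read from its calls. The pooled CD34 call was kept in 6 of 8 fits that left out 1 library (lost without control replicate 1 or 3). The NELFE call was kept in 3 of 8 (lost without any 1 control or without NELFE replicate 1 or 3). The NELFB call was kept in 7 of 8. The exception, without NELFB replicate 1, left 1 NELFB library, at 3.09, and without NELFB replicate 2 the value was 4.73. The part of these markers in the results was not tested.

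In each of the 3-library groups 1 library stood apart from the others. Over the genes tested, control replicate 1 correlated at 0.988 and 0.984 with the other controls, which correlated at 0.992 with each other (Pearson r of log2 CPM across genes, which are not independent). NELFE replicate 3 correlated at 0.988 and 0.987 with the other NELFE libraries, which correlated at 0.993 with each other. Control replicate 3 and NELFE replicate 3 also had the lowest FOS of their groups. FOS, an immediate early gene, was at 4.05, 3.91 and 1.05 CPM in control libraries, at 33.9, 70.5 and 7.26 CPM after NELFE knockdown and at 99.3 and 123 CPM after NELFB knockdown. CRYAB, which encodes a small heat shock protein, was at 0.441, 4.57 and 9.85 CPM in control libraries, at 29.6, 23.1 and 177 CPM after NELFE knockdown and at 139 and 80.6 CPM after NELFB knockdown. NELFE replicate 3 had the highest CRYAB of all libraries, nearer to the NELFB libraries than to its own group. The summed level of 5 YAP-TEAD targets, of which CCN1 was the most abundant, was 191, 293 and 379 CPM in control libraries, 406, 372 and 794 CPM after NELFE knockdown and 960 and 801 CPM after NELFB knockdown. The sum of 5 BMP and TGF-beta targets, led by ID3, was 112, 142 and 192 CPM in control libraries, 260, 260 and 365 CPM after NELFE knockdown and 301 and 302 CPM after NELFB knockdown. Control replicate 1 and NELFE replicate 3 marked the ends of many Notch genes as well. Control replicate 1 was the highest of the controls for 8 of the 10 genes (43.3% of all genes tested), control replicate 3 the lowest for 8 (37.4% of all genes), and NELFE replicate 3 the lowest of its group for 9 (40.8% of all genes). The cause of their position was not tested.

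Levels per length show which genes lead each role in control cells. In TPM (counts scaled by the length of all annotated exons and by the library total), NOTCH2 had the highest level, 54.1 ± 3.13 (SD, n = 3), above NOTCH3 at 36.8 ± 11.4. NOTCH3, HES4 (33.6 ± 11.1) and JAG2 (31.6 ± 5.69) followed each other within their spread. NRARP (20.7 ± 5.09), JAG1 (19.4 ± 1.26) and NOTCH1 (18.5 ± 0.739) were likewise not separated from each other. HES1 (10.6 ± 1.98), DLL1 (9.75 ± 3.60) and HEY1 (5.38 ± 0.912) were lowest, each within the spread of the next. JAG2 was thus the leading ligand in control cells by this scale, and NOTCH2 the leading receptor. After NELFE knockdown the 3 ligands were not separated by this scale, with JAG1 at 28.1 ± 3.56 TPM (n = 3), JAG2 at 22.2 ± 5.78 and DLL1 at 18.0 ± 10.4. After NELFB knockdown JAG1 had the highest level of the 3 ligands at 42.2 ± 1.03 TPM (n = 2), while DLL1 at 19.7 ± 2.14 and JAG2 at 19.0 ± 3.04 were not separated from each other. With the length of the canonical transcript in place of all exons, HES4 moved above NOTCH3, JAG1 and NOTCH1 above NRARP, and HEY1 above DLL1, and JAG2 remained above JAG1 in control cells (20.4 ± 3.90 against 17.6 ± 0.982 TPM), there within their spread. After NELFE knockdown this length separated JAG1, at 26.1 ± 3.43 TPM, from JAG2 at 14.6 ± 3.84 and DLL1 at 10.8 ± 6.27. The lead of JAG1 in that group therefore depends on the length used. After NELFB knockdown the canonical length left JAG1 highest at 39.6 ± 0.663 TPM. JAG2 at 12.6 ± 2.11 and DLL1 at 11.9 ± 1.39 were again within their spread.

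**Figure D1:**
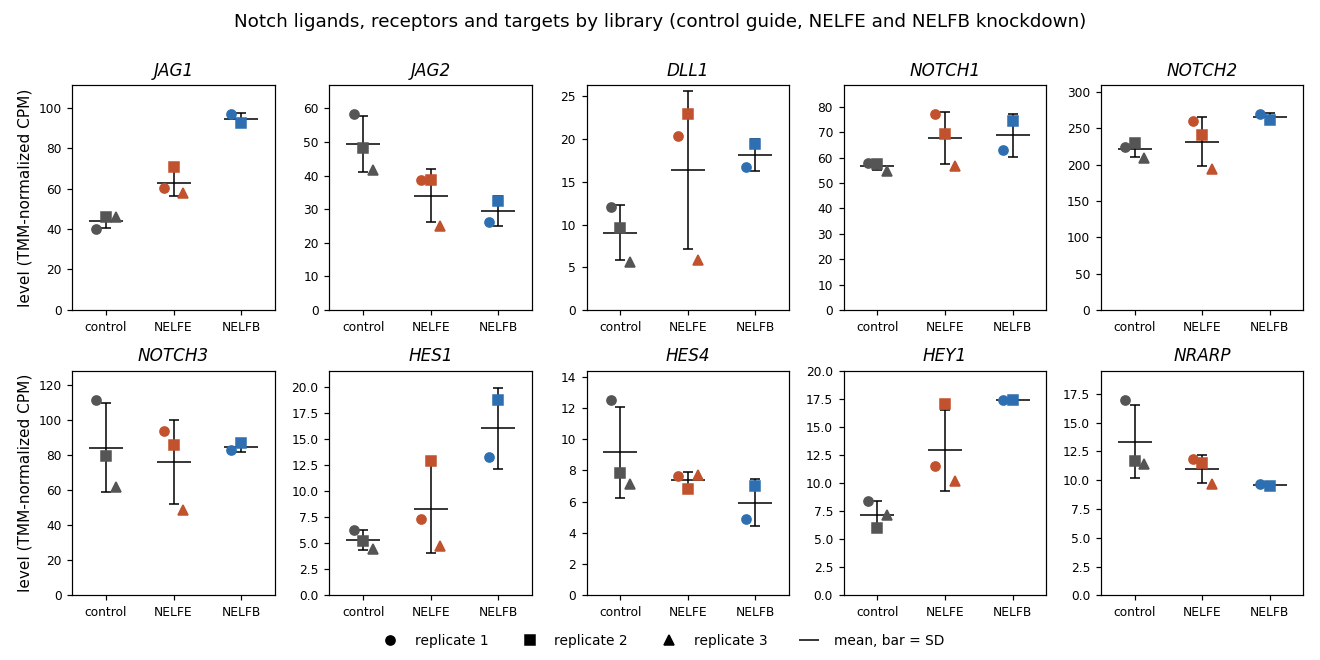
Level of each of the 10 Notch genes in every library (y axis: TMM-normalized CPM, from 0, a separate scale per gene; x axis: control guide, NELFE knockdown, NELFB knockdown). Symbols mark the replicate, lines the group mean and bars the SD; JAG1 and HEY1 lie above the controls in all 5 knockdown libraries, JAG2 lies below them in all 5, and for the other 7 genes the 5 libraries are neither all above nor all below.

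The 2 Jagged ligands moved in opposite directions. JAG1, the broadly expressed Jagged ligand (chr20:10637684-10673999, minus strand, GRCh38), was at 40.2, 45.8 and 45.9 CPM in control libraries, at 60.2, 70.6 and 58.1 CPM after NELFE knockdown and at 96.7 and 92.6 CPM after NELFB knockdown. The 3 groups did not overlap, and both NELFB libraries were above every NELFE library. The log2 fold change of JAG1 was 0.51 (SE 0.09) with the NELFE guide and 1.11 (SE 0.10) with the NELFB guide, and the direct difference, NELFE minus NELFB, was -0.59 (SE 0.10). In fits without 1 library the NELFE value ranged from 0.43 to 0.57, and the NELFB value from 1.04 to 1.14. JAG1 was the sole member past an adjusted p of 0.05 (edgeR) between the knockdowns, where 0.0771% of all genes were called lower with the NELFE guide and 0.237% higher. That call was kept in 2 of 8 left-out fits.

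JAG2, the second Jagged ligand (chr14:105140982-105168824, minus strand), was at 58.2, 48.2 and 41.7 CPM in control libraries, at 38.6, 38.6 and 24.9 CPM after NELFE knockdown and at 26.2 and 32.5 CPM after NELFB knockdown. All 5 knockdown libraries were below all controls, though the gap between control replicate 3 and the first NELFE libraries was small. Its log2 fold change was -0.54 (SE 0.18) with the NELFE guide, -0.75 (SE 0.20) with the NELFB guide and -0.62 (SE 0.16) for the 5 knockdown libraries together. Without control replicate 1, the highest control, the pooled value was -0.49, no longer past the threshold. The NELFB call of JAG2 was kept in 4 of 8 left-out fits, with values from -0.92 to -0.61. It was lost without control replicate 1, control replicate 2 or either NELFB library. Without an NELFB library 1 is left in that group and the error comes from the other groups, so that loss is not read. DLL1, a Delta-type ligand (chr6:170282206-170306565, minus strand), was at 12.04, 9.59 and 5.58 CPM in control libraries, at 20.4, 22.9 and 5.81 CPM after NELFE knockdown and at 16.8 and 19.4 CPM after NELFB knockdown. Of the knockdown libraries, only NELFE replicate 3 lay within the control range, close to control replicate 3. The pooled log2 fold change of DLL1 was 0.91 (SE 0.41). With both replicate 3 libraries left out, a choice made after seeing the data, it was 0.87 (SE 0.14). Both of those libraries had the lowest DLL1 of their groups, so the smaller error is not read. For the NELFE guide alone the left-out fits of DLL1 ranged from 0.53 to 1.25, the lowest without NELFE replicate 2 and the highest without NELFE replicate 3.

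The promoters of the Jagged pair are shown because the ligands differ in direction. Bases just before the start sites are printed 5′ to 3′ on the gene's strand from RefSeq (GRCh38.p14), for JAG1 from 150 bases to 1 base before the start (chr20:10674000-10674149) and for JAG2 from 150 to 49 bases before it (chr14:105168825-105168926), a stretch that lies outside every annotated JAG2 exon.
JAG1: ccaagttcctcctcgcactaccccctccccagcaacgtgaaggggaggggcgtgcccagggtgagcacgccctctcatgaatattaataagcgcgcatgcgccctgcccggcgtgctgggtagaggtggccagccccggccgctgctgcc
JAG2: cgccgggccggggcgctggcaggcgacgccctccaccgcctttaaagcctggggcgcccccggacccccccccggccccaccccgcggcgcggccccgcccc
Neither holds a capital, since capitals here mark the RBPJ core TGGGAA on either strand, and neither full window, from 250 bases before to 50 after the start, held one. The full windows of JAG1 and JAG2 each held the class C site CACGCG, a sequence that HES and HEY proteins are known to bind, as did 11.4% of all promoter windows. The matches lie outside the printed stretches, at 40 to 45 from the start in JAG1 and at -236 to -231 in JAG2. A match is a string of letters and not a measured site.

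The receptors had fold changes nearer to 0 than the ligands. NOTCH1 (chr9:136494433-136546048, minus strand) was at 57.7, 57.5 and 54.8 CPM in control libraries, at 77.0, 69.3 and 56.7 CPM after NELFE knockdown and at 62.8 and 74.6 CPM after NELFB knockdown. NELFE replicate 3 was the 1 knockdown library inside the control range. The log2 fold change was 0.25 (SE 0.11) for NELFE and 0.28 (SE 0.13) for NELFB. With 1 library left out, the NELFE value ranged from 0.15 without NELFE replicate 1 to 0.36 without NELFE replicate 3, and the NELFB value from 0.14 without NELFB replicate 2 to 0.39 without NELFB replicate 1. NOTCH2 (chr1:119911553-120100779, minus strand) was at 225, 230 and 209 CPM in control libraries, at 260, 241 and 194 CPM after NELFE knockdown and at 269 and 262 CPM after NELFB knockdown. Again the other 4 knockdown libraries were above all controls, whereas NELFE replicate 3 was below them. The log2 fold changes were 0.06 (SE 0.10) and 0.27 (SE 0.11), and the NELFE value had no stable sign, at -0.026 without NELFE replicate 1 and 0.17 without NELFE replicate 3. NOTCH2 shares long stretches with its NOTCH2NL copies, so its count is uncertain to the extent that reads were split. NOTCH2NLA, the 1 copy listed in the table, had 3 to 14 reads per library.

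NOTCH3 (chr19:15159038-15200995, minus strand) was spread widely within the groups, at 112, 79.6 and 61.9 CPM in control libraries, 93.9, 85.9 and 48.8 CPM after NELFE knockdown and 82.9 and 86.8 CPM after NELFB knockdown. The groups overlapped, and NELFE replicate 3 was the lowest of all 8 libraries. The log2 fold change was -0.15 (SE 0.24) for NELFE and 0.01 (SE 0.27) for NELFB. The sign turned with single libraries here too: without control replicate 1 these values were 0.10 and 0.26, without control replicate 3 they were -0.33 and -0.17, and without NELFE replicate 3 the NELFE value was 0.086. No receptor passed the threshold in the 4 comparisons as set out above. NOTCH1 was called higher in the pooled comparison with no filter on low counts, with the replicate number as a block, without NELFE replicate 3 and without both replicate 3 libraries, and NOTCH2 without NELFE replicate 3. For the NELFE guide alone NOTCH1 was called higher without NELFE replicate 3 (9.64% of all genes) and without both replicate 3 libraries (9.09%). For the NELFB guide alone NOTCH2 was called higher without NELFE replicate 3 (13.2%).

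Of the 4 targets, HES1 and HEY1 had higher mean levels with both guides, and HES4 and NRARP lower mean levels. HES1, a repressor that oscillates through its own negative feedback (chr3:194136148-194138732, plus strand), was at 6.30, 5.19 and 4.44 CPM in control libraries, at 7.32, 12.9 and 4.70 CPM after NELFE knockdown and at 13.3 and 18.8 CPM after NELFB knockdown. Both NELFB libraries exceeded every other library, and NELFE replicate 3 lay inside the control range. The log2 fold change was 0.64 (SE 0.32) with the NELFE guide and 1.59 (SE 0.34) with the NELFB guide. The difference between the guides was -0.95 (SE 0.33), not past the threshold. With no filter on low counts HES1 was called lower in that comparison (0.281% of all genes). The NELFE value of HES1 ranged from 0.18 without NELFE replicate 2 to 0.92 without NELFE replicate 3, and the NELFB value from 1.32 to 1.81, called in 7 of 8 left-out fits. HEY1, a related repressor (chr8:79762371-79767857, minus strand), was at 8.39, 6.04 and 7.19 CPM in control libraries, at 11.5, 17.0 and 10.2 CPM after NELFE knockdown and at 17.4 CPM in both NELFB libraries. It was above the controls in all 5 knockdown libraries, NELFE replicate 3 included. Its log2 fold change was 0.84 (SE 0.19) for NELFE and 1.27 (SE 0.21) for NELFB, and the NELFE call was lost without control replicate 2 or NELFE replicate 2.

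HES4, a HES family gene (chr1:998962-1000172, minus strand), was at 12.5, 7.86 and 7.10 CPM in control libraries, at 7.61, 6.78 and 7.72 CPM after NELFE knockdown and at 4.86 and 7.01 CPM after NELFB knockdown. Control replicate 1 was well above the other 7 libraries, and the groups overlapped for NELFE. The pooled log2 fold change was -0.43 (SE 0.20), and left-out fits ranged from -0.58 without control replicate 3 to -0.14 without control replicate 1. NRARP, the feedback regulator (chr9:137299631-137302271, minus strand), was at 17.0, 11.7 and 11.4 CPM in control libraries, at 11.8, 11.5 and 9.63 CPM after NELFE knockdown and at 9.65 and 9.48 CPM after NELFB knockdown. As for HES4, control replicate 1 was the highest library, and the NELFE group reached into the control range. The pooled log2 fold change of NRARP was -0.36 (SE 0.15), with left-out fits from -0.46 without control replicate 3 to -0.15 without control replicate 1.

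HES1 and HES4 are printed because they differ in these values while their promoters share the RBPJ core, and NRARP because its window lacks the core. The stretches are from RefSeq (GRCh38.p14), 5′ to 3′ on the gene's strand, with each TGGGAA in capitals: HES1 and NRARP from 150 bases to 1 base before the start (chr3:194135998-194136147, plus strand, and chr9:137302272-137302421, minus strand), and HES4 as 30 bases around its core (chr1:1000156-1000185, minus strand).
HES1: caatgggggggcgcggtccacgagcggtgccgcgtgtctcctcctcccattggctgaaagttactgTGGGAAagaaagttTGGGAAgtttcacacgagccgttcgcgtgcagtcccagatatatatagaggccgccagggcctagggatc
HES4: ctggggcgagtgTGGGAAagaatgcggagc
NRARP: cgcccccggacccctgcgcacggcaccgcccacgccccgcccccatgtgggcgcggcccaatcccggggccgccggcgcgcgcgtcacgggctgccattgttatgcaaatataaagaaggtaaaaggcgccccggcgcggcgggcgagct
The annotated HES4 gene reaches to chr1:1000172, so most of its core lies inside the gene, before the start used here. HES1 held 2 cores, at -84 to -79 and -70 to -65 from the start with 8 bases between them, and HES4 held 1, at -76 to -71. The longest run shared by the 2 stretches was tgTGGGAAagaa, 12 bases that include the first HES1 core. Of the 10 genes, 8 had a promoter window in the RefSeq table, and DLL1 and HEY1 did not match. HES1 and HES4 were the 2 of 8 windows with TGGGAA, which 24% of all 35116 promoter windows held. The longer GTGGGAA, which overlaps it, was in the same 2 genes and in 6.25% of all windows. Other sites known for HES and HEY proteins were also searched on both strands: the N box CACNAG was in 5 of 8 windows (38.0% of all windows), with 4 matches in HES1, and the class C site CACGCG in 4 of 8 (11.4% of all), with 2 matches each in HES1 and NRARP. No member window held the E box CACGTG (7.26% of all windows) or the AP-1 site TGANTCA (7.71% of all).

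**Figure D2:**
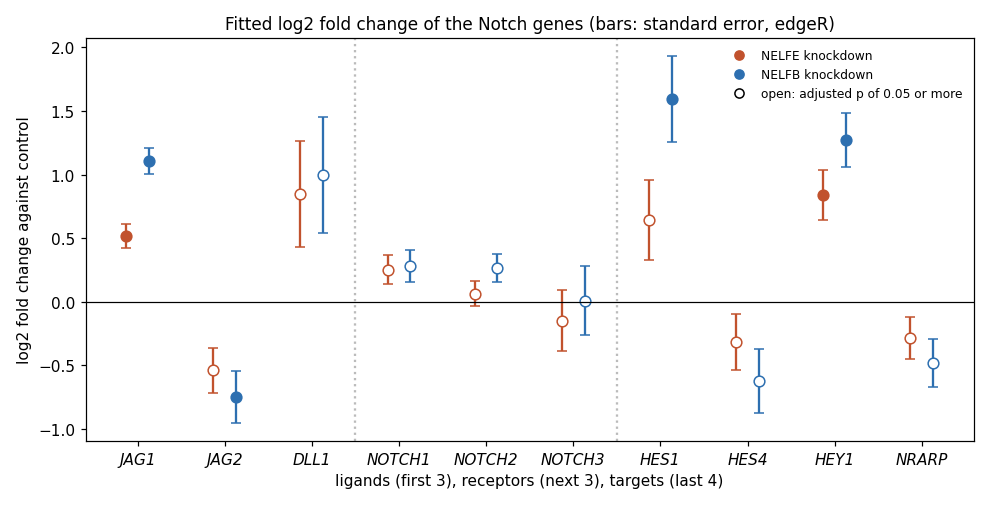
Fitted log2 fold change against control (y axis) for the 10 Notch genes (x axis, grouped as ligands, receptors and targets), with the NELFE guide in orange and the NELFB guide in blue. Bars are standard errors from edgeR and filled points have an adjusted p under 0.05. JAG1 and HEY1 are filled for both guides, and HES1 and JAG2 for NELFB. The filling is a description, since the genes were picked with these values known.

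As a group, the 10 genes had a median log2 fold change of 0.21 in the pooled comparison, where the median over all 16367 genes tested was -0.0021. In that comparison 2 members (JAG1 and HEY1) were called higher, beside 13.3% of all genes tested, and 1 (JAG2) was called lower, beside 12.7% of all genes. With the NELFE guide 2 were higher (JAG1 and HEY1; 7.92% of all genes) and 0 lower (7.04% of all genes); DESeq2 added JAG2 to the lower calls (8.25% of all genes). With the NELFB guide 3 were higher (JAG1, HEY1 and HES1; 10.6% of all genes) and 1 lower (JAG2; 8.88% of all genes). All 5 knockdown libraries lay above all 3 controls for 2 of the 10 genes, beside 14.8% of all genes, and below them for 1, beside 14.0% of all genes. The counts for single guides moved with 1 library. Without NELFE replicate 3 the NELFE guide had 5 higher (DLL1, HES1, HEY1, JAG1 and NOTCH1, beside 9.64% of all genes). The NELFB guide then also had 5 higher (DLL1, HES1, HEY1, JAG1 and NOTCH2, beside 13.2%). Without control replicate 2 or NELFE replicate 2 the NELFE guide had 1 higher (JAG1, beside 3.92% and 3.86%). Since the genes were picked with these values known, nothing is read from the counts or from the median. JAG1 was not called in the pooled comparison with no filter on low counts, where HEY1 and NOTCH1 were higher (6.29% of all genes) and HES4, JAG2 and NRARP lower (6.31%), nor with the replicate block, where DLL1, HEY1 and NOTCH1 were higher (17.1% of all genes) and JAG2 and NRARP lower (17.3%). Without NELFE replicate 3 the pooled comparison called 6 of the 10 higher (DLL1, HES1, HEY1, JAG1, NOTCH1 and NOTCH2; 15.5% of all genes) and 1 lower (15.9%), and without both replicate 3 libraries 5 higher (DLL1, HES1, HEY1, JAG1 and NOTCH1; 12.3% of all genes) and 2 lower (HES4 and JAG2; 13.3%).

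The pattern of JAG1 across the 8 libraries was most like that of BACE1, the beta-secretase (Pearson r = 0.99 on log2 CPM over 10458 genes compared), FAM50A (0.98) and TLE4, a Groucho-family corepressor (0.98). For HES1 the most alike were UBXN11 (0.97), ZBED6 (0.97) and FAT1, an atypical cadherin (0.97), and for NRARP NIPSNAP2 (0.98), SLC43A1, an amino acid transporter (0.98), and ACADS, an acyl-CoA dehydrogenase (0.97). These values describe 8 points that fall into 3 groups, and genes that differ between the groups share that much by construction.

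The other genes of the pathway were taken from a list of 64, which adds further ligands and NOTCH4, receptor glycosylation and cleavage, ligand endocytosis, the nuclear complex, corepressors, negative regulators and the other HES and HEY genes. The list was chosen with earlier results of these data known, so its shares are a description. Of the 59 that could be tested in the pooled comparison, 8 rose and 3 fell (edgeR's quasi-likelihood test, Benjamini-Hochberg adjusted over all genes tested), which is 13.6% and 5.08%, against the 13.3% and 12.7% of all genes given above. The 8 include HES5, which passed the filter on low counts through the knockdown libraries. The lower share of falls was not kept by every fit: DESeq2 called 9 higher (15.3% against 14.2% of all genes) and 7 lower (11.9% against 13.8%), and with the replicate number as a block edgeR called 10 lower, 16.9% against 17.3%. Without NELFE replicate 3, edgeR called 13 higher, 21.7% against 15.5% of all genes. Without control replicate 2 it called 0 lower, where the calls over all genes also dropped, from 2182 to 1360 higher (8.09%) and from 2073 to 1328 lower (7.90%). The median log2 fold change of the list was -0.00048, close to that of all genes.

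HES5, a classical Notch target in neural cells, had the highest fold change of the list, from a low level. Its raw counts were 5, 2 and 6 in control libraries, 56, 104 and 7 after NELFE knockdown and 111 and 88 after NELFB knockdown. It passed the filter on low counts through the knockdown libraries, so nothing is read from its call. The other 4 knockdown libraries were far above the controls, while NELFE replicate 3, with 7 reads, was just above them. The pooled log2 fold change was 4.04 (SE 0.84, edgeR adjusted p = 0.00789, above the controls in 5 of 5 knockdown libraries). Without both replicate 3 libraries, left out after seeing the data, it was 4.63 (SE 0.45). That fit drops the knockdown library with 7 reads, so its smaller error is not read. With all libraries and no filter on low counts the pooled value was 4.03 (SE 1.03) and the call was lost (edgeR adjusted p = 0.0551), for each guide alone too. A minimum of 10 counts in every library removes HES5. HES7, the HES gene of the segmentation clock, was at 19.5, 16.0 and 11.1 CPM in control libraries, at 11.3, 10.97 and 7.26 CPM after NELFE knockdown and at 7.15 and 8.20 CPM after NELFB knockdown. It fell by 0.79 on the log2 scale (SE 0.20, edgeR adjusted p = 0.0144), with 4 of 5 knockdown libraries below all controls. That call was lost without control replicate 1 and without control replicate 2. The fitted values of the HES and HEY genes tested, members included, differed in sign. HES1, HEY1 and HES5 had values above 0 in both knockdowns, and HES4, HES7, HES2, HEYL and HES6 below 0. Of the latter, only HES7 passed edgeR's adjusted threshold in the comparisons with all libraries as set out above. The NELFE value of HES6 was -0.07 (SE 0.12) and turned to 0.07 in a left-out fit. The signs are therefore a description.

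Among the cofactors, TLE4, a corepressor, was at 8.95, 10.1 and 10.9 CPM in control libraries, at 17.8, 20.7 and 19.96 CPM after NELFE knockdown and at 28.7 and 27.1 CPM after NELFB knockdown. The 3 groups did not overlap, and NELFE replicate 3 lay with the other NELFE libraries. The pooled log2 fold change was 1.20 (SE 0.16, edgeR adjusted p = 0.000681). With CIR1, another corepressor (0.30), it made up the 2 of 12 corepressors that rose, beside 13.3% of all genes, so the count is near the background; 0 fell (12.7% of all genes), where 2 had an unadjusted p under 0.05 and DESeq2 called 2. In the nuclear complex 2 of 11 genes rose and 1 fell, counts likewise near the 13.3% and 12.7% of all genes. They were the Mastermind coactivator MAML2 (0.57) and the acetyltransferase KAT2B (0.30), which rose, and MAML1 (-0.22), which fell, a call kept in 2 of 8 left-out fits. RBPJ, the DNA-binding partner of the receptors, had a pooled value of 0.16 (SE 0.08, edgeR adjusted p = 0.181); with the NELFB guide alone it rose by 0.30 (SE 0.08, edgeR adjusted p = 0.0257), a call kept in 5 of 8 left-out fits, and with the NELFE guide it was 0.06 (SE 0.07, edgeR adjusted p = 0.645). The direct difference between the guides was -0.24 (SE 0.08), with an edgeR adjusted p of 0.751.

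**Figure D3:**
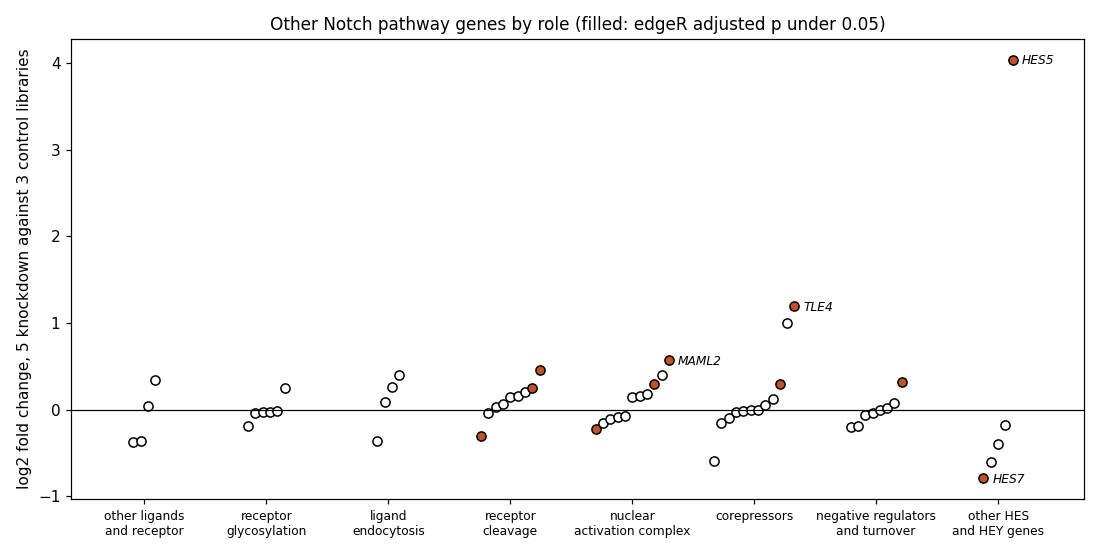
Log2 fold change of the 59 tested pathway genes outside the 10 members, 5 knockdown against 3 control libraries (y axis), by role (x axis). Each point is a gene and filled points have an edgeR adjusted p under 0.05. HES5 (4.04), TLE4 (1.20) and MAML2 (0.57) rose and HES7 (-0.79) fell, and most points lie near 0. HES5 passed the filter on low counts through the knockdown libraries, so nothing is read from its filled point.

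Of the 9 genes of receptor cleavage, 2 rose and 1 fell, beside the same 13.3% and 12.7% of all genes. NCSTN, the nicastrin subunit of gamma-secretase, rose by 0.45 (SE 0.08, edgeR adjusted p = 0.00255) and ADAM10, the protease of the outer cut, by 0.25 (SE 0.07, edgeR adjusted p = 0.0215). APH1B, another gamma-secretase subunit, fell by 0.30 (SE 0.09, edgeR adjusted p = 0.0293), a call kept in 3 of 8 left-out fits, and those of ADAM10 and KAT2B were kept in 5 of 8. Of the negative regulators, FBXW7, the ubiquitin ligase subunit that removes the active receptor, rose by 0.32 (SE 0.08, edgeR adjusted p = 0.0117) and was the 1 of 8 tested that did, near the 13.3% of all genes; 0 fell (12.7% of all genes), where 1 had an unadjusted p under 0.05 and DESeq2 called 1. No gene of the other ligands and NOTCH4 (4 tested), of receptor glycosylation (6 tested) or of ligand endocytosis (4 tested) passed edgeR's adjusted threshold in the pooled comparison; 2, 1 and 0 of them had an unadjusted p under 0.05, and DESeq2 called 0.

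With the guides taken singly, 6 of 60 pathway genes tested rose after NELFE knockdown (10.0%, against 7.92% of all genes) and 0 fell by edgeR (against 7.04% of all genes), where 8 lower genes had an unadjusted p under 0.05 and DESeq2 called 2. After NELFB knockdown 9 rose (15.0%, against 10.6% of all genes) and 3 fell (5%, against 8.88%): APH1B, HES7 and MFNG, a Fringe glycosyltransferase named here after its value was seen. These falls were kept in 1, 5 and 2 of 8 left-out fits, in that order. The 9 rises include DLK1. Its reads were 2, 4 and 5 in control libraries, 10, 3 and 2 after NELFE and 14 and 18 after NELFB knockdown. DLK1 was not tested in the pooled comparison and passed the filter of the 3-group model through its NELFB libraries. HES5 and the corepressor TLE1, also among the 9, passed it through knockdown libraries too. Nothing is read from these calls or from the share of 15.0% that holds them. HES5 is among the 6 rises of NELFE as well, so the share of 10.0% is not read either. The 9 became 6 without control replicate 2. The 6 of NELFE became 3 without that control, NELFE replicate 1 or NELFE replicate 2. Fits without 1 NELFB library leave 1 in that group, so their counts are not given here. The higher calls over all genes dropped as well, from 1793 to 1085 for NELFB and from 1334 to 659, 561 and 647 for NELFE. Between the knockdowns edgeR called 0 of the 60 in either direction and DESeq2 called 0, and 3 were higher and 6 lower with the NELFE guide at an unadjusted p under 0.05. The 2 comparisons with control share the control libraries, and calls with 1 guide and not the other are no test of a difference.

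**Figure D4:**
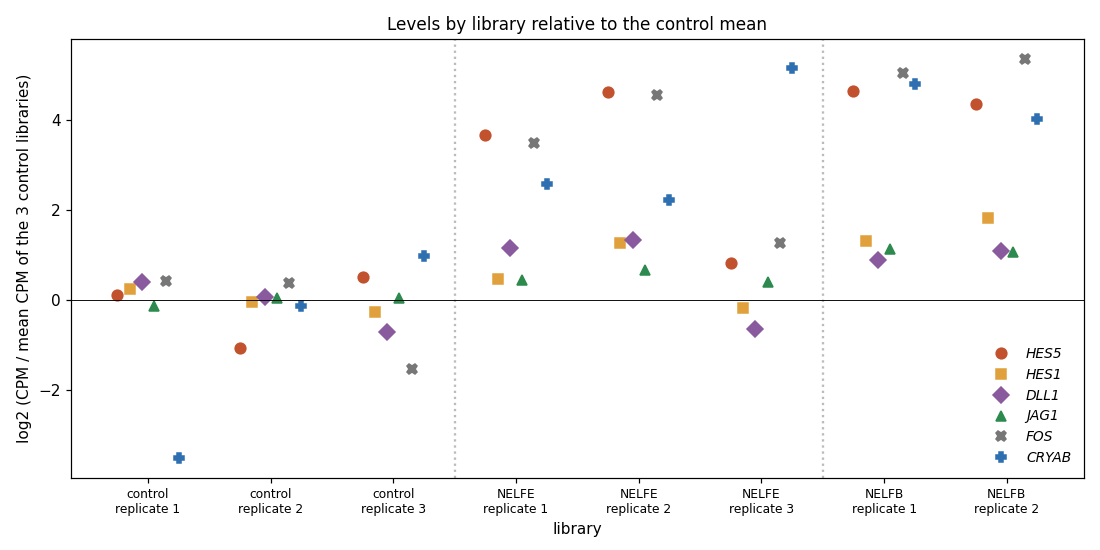
Level of 4 Notch pathway genes (HES5, HES1, DLL1, JAG1) and of FOS and CRYAB in each library, as log2 of the ratio to the mean CPM of the 3 control libraries (y axis), by library (x axis). NELFE replicate 3 has lower HES5, HES1, DLL1 and FOS than the other 4 knockdown libraries and the highest CRYAB, while its JAG1 stays near that of the other NELFE libraries.

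Some positions overlap with other annotated genes, and the counting did not use strand. By exon length, 3.29% of JAG1, 7.33% of JAG2, 9.69% of DLL1 (with FAM120B) and 2.76% of NRARP lie over exons of another gene, so reads there cannot be assigned by strand. The other 6 genes have no such overlap.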

How the data were processed

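PolyA RNA from 8 HAP1 cultures was sequenced by the authors as single-end reads of 65 bp. Per the paper's methods and the labels, reads were checked with FastQC 0.11.6 and aligned to GRCh38 with STAR 2.5.4a, which gave the deposited raw counts per gene (Gencode v24, without strand). NELFE and NELFB replicates were described as independent biological replicates; for control libraries this is not given in the sources used here, so p-values measure the spread between these libraries. Symbols and exon lengths came from GENCODE v44 (97.4% of genes with reads and 99.88% of counts matched). Counts were filtered with filterByExpr, scaled by TMM and fitted with the robust quasi-likelihood test of edgeR 4.0.16 under R 4.3.3 (Benjamini-Hochberg adjusted p under 0.05), pooled as 5 knockdown against 3 control libraries and in a model of 3 groups (16852 genes tested) for single guides. The standard error is the absolute log2 fold change divided by the square root of F. DESeq2 1.42.0, other normalization and filters, a replicate block and leaving out each library were alternatives. A fit without 1 NELFB library leaves 1 in that group, and its error then comes from the other groups. Leaving out both replicate 3 libraries, and TPM by canonical transcript, were chosen after seeing the data. Scripts were tested on simulated data. The members and the lists were chosen with earlier results of these data known. The named genes were all members, the guide targets, pathway genes called in the pooled comparison whose average log2 CPM reached 1 (at most 12, by fold change), RBPJ, the 3 genes most correlated with each of JAG1, HES1 and NRARP, and genes of the marker lists and of the lists of genes given beside the results. DLK1, HES2, HES6, HEYL, MFNG, PSENEN and TLE1 were named after their values were seen. Promoter windows and motifs came from a RefSeq table (GRCh38.p14).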

Additional observations from a re-analysis of the deposited data

Results flagged for a closer look

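Among the 5 knockdown libraries, 1 stood far from the others, by Dixon's ratio at its 95% critical value, for 3 of 85 genes searched (the 69 members and other pathway genes tested, and 16 tested genes of the marker and comparison lists). NOTCH3 was at 48.8 CPM in NELFE replicate 3, below the other 4 knockdown libraries (82.9 to 93.9 CPM). PSENEN, a gamma-secretase subunit, was at 13.5 CPM in NELFE replicate 2, above the other 4 (10.7 to 11.5 CPM). ID1, a BMP target, was at 61.8 CPM in NELFE replicate 3, above the other 4 (32.7 to 37.7 CPM). Chance flags about 1 in 20 such groups.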

How the results depend on the processing

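Each log2 fold change of the 10 members moved by less than the spread within groups under the alternatives run. Leaving out 1 library of a small group can hardly move a value by more than that, so no stability is read from it. Values near 0 changed sign in some of these fits, among them NOTCH2 and NOTCH3 with the NELFE guide. The calls of the members did change, among them these. JAG1 lost its pooled call with no filter and with the replicate block, while NOTCH1 and NRARP gained one with both, HES4 with no filter, DLL1 with the block and HES1 in the model of 3 groups. For NELFE, JAG2 gained one with DESeq2, no filter and the block, HES1 with no filter and DLL1 with the block. For NELFB, HES4 gained one with no filter, NRARP with no filter and the block, and DLL1 with the block and with only the libraries compared. The JAG1 call between the knockdowns was lost with DESeq2 size factors, with at least 10 counts in every library and with only the libraries compared. HES1 gained a lower call between the knockdowns with no filter on low counts. Counts of pathway genes moved too, and are given with the share of all genes called under the same setting. Pooled, 3 fell with all libraries (12.7%), against 7 with DESeq2 (13.8%). After NELFE knockdown, 6 rose (7.92%) and 0 fell (7.04%), against 3 higher with only the libraries compared fitted (5.93%), 2 lower with DESeq2 (8.25%), 2 lower with no filter on low counts (4.61%) and 1 lower without both replicate 3 libraries (8.77%). After NELFB knockdown, 3 fell (8.88%), against 5 with no filter (5.82%), 1 with at least 10 counts in every library (9.49%) and 5 without both replicate 3 libraries (11.4%). Whether the replicate numbers mark shared cultures or days is not given in the sources used here. Deviations of same-numbered libraries correlated at 0.25, 0.03 and 0.43 between control and NELFE, at -0.03 and -0.01 between control and NELFB and at 0.09 and 0.18 between NELFE and NELFB, so the numbers were not used as a pairing. With the replicate block, calls over all genes in the pooled comparison went from 2182 higher and 2073 lower to 2798 and 2838, and pathway genes were 12 higher (17.1%) and 10 lower (17.3%) pooled, 11 higher (14.3%) and 6 lower (14.0%) for NELFE, 11 higher (14.8%) and 6 lower (13.7%) for NELFB and 0 higher (0.409%) and 1 lower (0.748%) between the knockdowns. Leaving out 1 library at a time gave 6 to 13 higher (8.09% to 15.5% of all genes) and 0 to 4 lower (7.90% to 15.9%) pooled, 3 to 8 higher (3.35% to 9.64%) and 0 to 1 lower (2.56% to 8.94%) for NELFE, 3 to 11 higher (2.17% to 13.3%) and 0 to 3 lower (1.27% to 12.6%) for NELFB, and 0 between the knockdowns (0.137% to 0.282% higher and 0.0114% to 0.202% lower). The 13 pooled higher calls came without NELFE replicate 3, and 0 lower without control replicate 2. The ranges for NELFB and between the knockdowns include fits with 1 NELFB library, whose error comes from the other groups. HES5 has 2 to 6 reads in each control library and 7 in NELFE replicate 3. The SE of its pooled fold change was 0.84, against 0.45 without both replicate 3 libraries. That fit was chosen after seeing the data, so its smaller error is not read. The causes of these changes were not tested.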
